A study of Mus musculus with 2 samples.

Results

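The small leucine-rich proteoglycans (SLRPs) were followed through single-cell RNA sequencing of small B16F10 tumours grown in hosts with and without ATF4, a transcription factor of the integrated stress response. The 7 genes, decorin (Dcn), biglycan (Bgn), asporin (Aspn), lumican (Lum), fibromodulin (Fmod), prolargin (Prelp) and osteoglycin (Ogn), were chosen by name as a gene family from the 31053 genes in the files. B16F10 is a mouse melanoma line injected under the skin. Hosts were Rosa26::CreERT2:Atf4 WT/WT mice (WT) or Rosa26::CreERT2:Atf4 fl/fl mice (KO, Atf4 Δ/Δ after deletion). Both were given tamoxifen, both carry a CreERT2 driven from the ubiquitous Rosa26 locus, and both were 11 weeks old. The injected melanoma cells kept their own Atf4. Each genotype gave 1 library from 2 pooled tumours with male and female hosts pooled, so no test between genotypes was possible and no p-value is given.

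SLRPs are secreted proteins with a core of leucine-rich repeats that bind collagen fibrils and set their spacing and diameter, and several also bind growth factors of the TGFβ family or innate immune receptors. In skin they are made chiefly by fibroblasts. Decorin, biglycan and asporin form class I, of which decorin and biglycan carry chondroitin or dermatan sulfate chains and asporin does not. Lumican, fibromodulin and prolargin belong to class II and osteoglycin, also called mimecan, to class III.

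The WT library held 38417113 unique molecular identifiers (UMIs) in 6304 barcodes and the KO library held 38290024 in 5474. The filters left 3861 WT and 3557 KO cells, which were assigned to 5 cell classes by counts of marker genes that did not include the SLRPs. Cancer-associated fibroblasts (CAFs) numbered 188 in WT and 216 in KO, with a median of 3729.5 and 3781.5 UMIs per cell. All 12 fibroblast markers were detected in the CAFs of both libraries, and 18 kept cells had exactly the 5 markers required for the class while 17 had 4. Atf4 itself was at 257 CPM (187 UMIs) in WT CAFs and 40.7 CPM (36 UMIs) in KO CAFs, where CPM is the UMIs of a gene per 1e+06 UMIs of the named cells. The 2 libraries shared 10 barcodes, of which 1 remained among the kept cells and 0 among the CAFs. UMIs of Y-linked genes in CAFs numbered 0 in WT and 70 in KO, although both pools were labelled as mixed in sex. All levels below are CPM. The protocol counts 1 tag per transcript end, so CPM values of different genes were compared without scaling by length. The intervals given are exact 95% intervals for the counting of molecules, and hold nothing of the spread among mice.

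The 7 genes include 3 pairs of chromosomal neighbours (positions in GRCm38). Dcn (chr10:97479609-97518143, plus strand) and Lum (chr10:97565128-97572703, plus) are 47.0 kb apart with no other protein-coding gene between them. Aspn (chr13:49544443-49567565, plus) and Ogn (chr13:49608046-49624501, plus) are 40.5 kb apart, with the family member Omd between them. Prelp (chr1:133910304-133921414, minus) and Fmod (chr1:134037254-134048277, plus) point away from each other across 115.8 kb. Bgn (chrX:73483602-73495933, plus) has no SLRP neighbour among the members. The promoters of Aspn and Ogn are shown as the neighbours with more UMIs of the pairs for which both sequences were at hand, and those of Dcn and Lum were not searched. Both windows cover 250 bases before and 50 bases after the RefSeq start of the gene on the plus strand of GRCm38.p6 (chr13:49544193-49544492 for Aspn and chr13:49607765-49608064 for Ogn). The RefSeq start of Aspn is the start given above, whereas that of Ogn (position 49608015) lies 31 bases upstream of it, and motif positions are counted from the RefSeq starts. Capitals mark matches to the motifs searched.
Aspn promoter: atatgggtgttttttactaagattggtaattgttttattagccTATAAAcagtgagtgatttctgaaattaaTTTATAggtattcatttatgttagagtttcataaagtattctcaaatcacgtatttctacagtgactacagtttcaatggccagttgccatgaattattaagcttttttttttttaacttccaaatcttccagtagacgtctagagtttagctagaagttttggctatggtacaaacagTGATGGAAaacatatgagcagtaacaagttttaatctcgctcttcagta
Ogn promoter: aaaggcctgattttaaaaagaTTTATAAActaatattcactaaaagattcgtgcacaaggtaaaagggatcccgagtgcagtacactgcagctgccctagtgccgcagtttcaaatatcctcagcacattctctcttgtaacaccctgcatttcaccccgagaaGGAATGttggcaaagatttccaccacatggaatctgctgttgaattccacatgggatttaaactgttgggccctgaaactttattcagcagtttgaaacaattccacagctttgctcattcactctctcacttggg
The motifs searched on both strands were the ATF4 and C/EBP composite element TGATGNAA, the AP-1 element TGANTCA, the TATA box TATAAA and the TEAD element GGAATG. In the 32851 mouse promoters of this length the composite was found in 3.97%, AP-1 in 7.81%, the TATA box in 13.6% and TEAD in 14.7%. Aspn held 1 composite match, which begins 1 base after the first base of the gene, and 2 TATA box matches far upstream, at -207 on the plus strand and -178 on the minus strand. Ogn held 1 TEAD match at -86 and 2 overlapping TATA box matches, at -227 and -229 on opposite strands. The promoter windows of Bgn, Fmod and Prelp held 0 matches to these letters. These matches are descriptions of the letters and not measured binding sites.

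All 7 SLRP genes were at their highest in fibroblasts by point estimate, for Fmod in KO on 1 UMI. Of the UMIs in kept cells, CAFs held 87.2% for Dcn, 82.8% for Bgn, 79.3% for Aspn, 90.6% for Lum, 85.7% for Fmod, 71.4% for Prelp and 88.0% for Ogn, while CAFs were 4.87% of WT and 6.07% of KO cells. Cells that passed several gates were set aside as mixed and are in none of the 5 classes. They held 11.7% of the SLRP UMIs of kept cells in WT and 7.10% in KO, with Bgn at 442 and 466 CPM. Cells that passed no gate held 0.276% and 4.35%. The CAF level exceeded that of the other 4 classes together by 1413-fold in WT and 846-fold in KO for Dcn, 634-fold and 584-fold for Bgn, and 610-fold and 615-fold for Aspn. For Lum it was 1685-fold (9 UMIs outside CAFs) and 559-fold (15 UMIs), for Ogn 940-fold (3 UMIs) and 648-fold (5 UMIs), and for Prelp 61.1-fold and 149.7-fold, so that the order of the genes differed between the libraries. Fmod was not detected in the other 4 classes. With that 0 set to 3 UMIs over those classes together, it was at least 115-fold higher in WT CAFs. The same bound in KO was 8.31-fold, on 1 CAF UMI. In endothelial cells alone 3 UMIs stand for 12.7 CPM in WT and 32.9 in KO. Fmod in CAFs was at 15.1 and 1.13 CPM, so the fold over endothelial cells was not resolved. Summed over the family, the log2 difference between CAFs and the other classes was 9.59 (9.40 to 9.80) in WT and 9.33 (9.13 to 9.53) in KO.

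**Figure D1:**
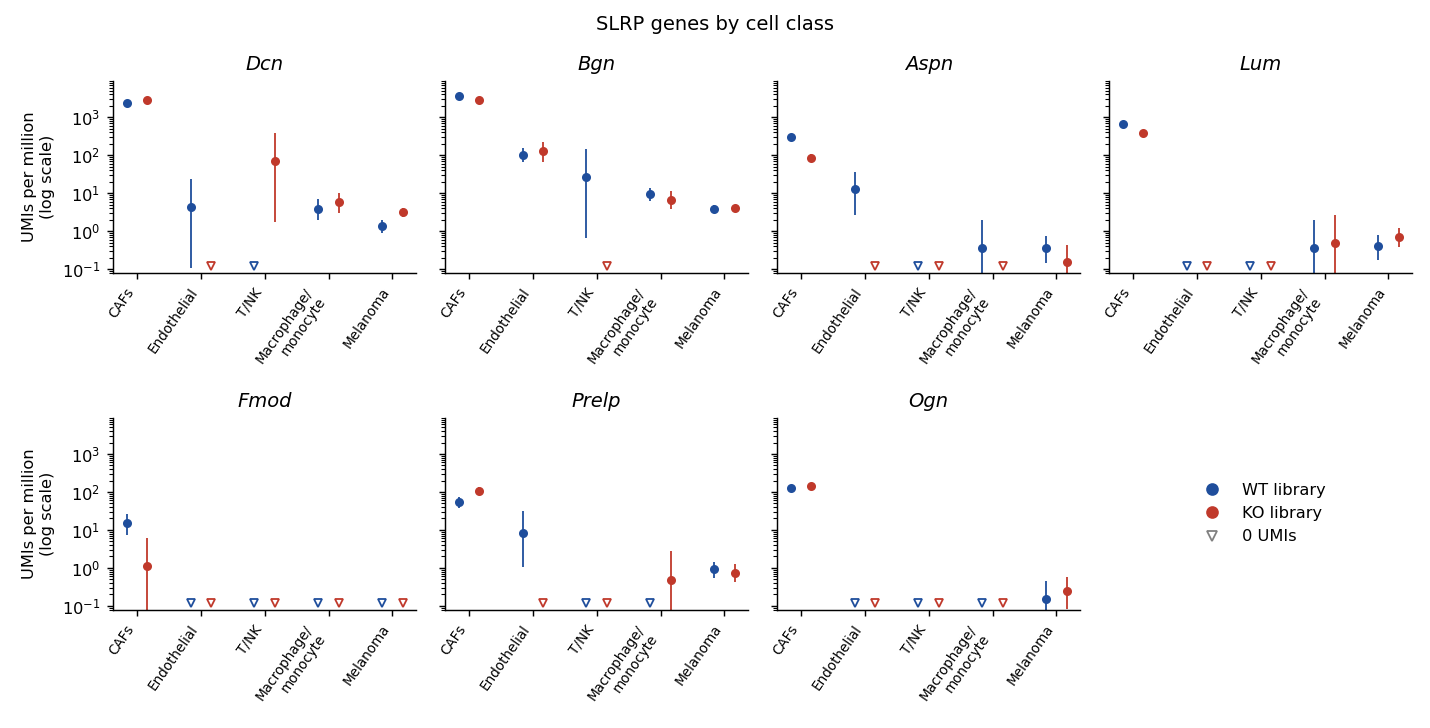
SLRP levels by cell class, in CPM on a log axis, with 1 point per library (WT blue, KO red). Bars are exact 95% Poisson intervals for counting error, open triangles at the foot mark 0 UMIs, and each of the 7 genes is at its highest in CAFs in both libraries, for Fmod in KO on 1 UMI.

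Among the other 4 classes, Bgn was highest in endothelial cells, which line vessels. These held 102 CPM of Bgn in WT (24 UMIs, 65.2 to 151) and 132 CPM in KO (12 UMIs, 68.0 to 230.0), against 3.90 and 3.96 CPM in melanoma cells. At a common depth of 2000 UMIs, 13.6% of 44 WT endothelial cells and 29.4% of 17 KO endothelial cells had a Bgn UMI, and the intervals, 5.17 to 27.4% and 10.3 to 56.0%, overlapped. The share was 0.546% of WT and 0.632% of KO melanoma cells, which was taken as the background. Unthinned, the endothelial shares were 26.3% and 38.1% and the melanoma shares 3.40% and 2.97%, at median depths of 2842 and 3795 against 11275 and 10651 UMIs. Dcn in macrophages and monocytes was at 3.94 CPM in WT (1.97 to 7.05) and 5.85 in KO (3.02 to 10.2). In melanoma cells it was at 1.37 (0.90 to 1.99) and 3.11 (2.39 to 3.99). The intervals of the 2 classes overlapped in each library, and the source of these UMIs was not tested. Aspn was at 12.7 CPM in WT endothelial cells, on 3 UMIs, and had 0 UMIs in KO endothelial cells. Lum, Ogn and Fmod had 0 UMIs in endothelial and T/NK cells of both libraries. In T/NK cells the floor of 3 UMIs stands for 80.1 CPM in WT and 210 CPM in KO, so that lower levels were not detectable there.

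Within CAFs the 7 genes were ordered differently in the 2 libraries. In WT the order was Bgn 3583 CPM (3447 to 3723), Dcn 2415 (2303 to 2530), Lum 664 (607 to 726), Aspn 294 (256 to 336), Ogn 124 (99.4 to 152), Prelp 53.5 (38.1 to 73.2) and Fmod 15.1 (7.54 to 27.0), and no neighbouring intervals overlapped. In KO it was Dcn 2873 (2762 to 2987), Bgn 2778 (2669 to 2890), Lum 379 (340 to 422), Ogn 147 (123 to 174), Prelp 108 (87.8 to 132), Aspn 83.6 (65.6 to 104.9) and Fmod 1.13 (0.0286 to 6.29). Dcn and Bgn, Ogn and Prelp, and Prelp and Aspn were neighbours in KO whose intervals overlapped. Aspn thus stood above Ogn and Prelp in WT and below Ogn in KO.

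Of the 6 genes with at least 50 UMIs in CAFs, 2 were at least 1.5-fold lower in KO (Lum and Aspn), 1 was at least 1.5-fold higher (Prelp) and 3 lay between. Over the 4279 genes tested in the same way, 12.3% were at least 1.5-fold lower and 9.39% at least 1.5-fold higher. The median log2 KO/WT ratio was -0.06 for the 6 genes and -0.04 for all genes tested. The seventh gene, Fmod, was below that count. At 200 UMIs or more, 2 of 5 genes were lower and 0 higher, where 9.21% and 8.15% of all genes were, and at 2-fold 1 of 6 was lower (Aspn) and 1 higher (Prelp), where 3.62% and 3.44% were.

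Class I. Dcn, which binds collagen and TGFβ, was at 2415 CPM in WT CAFs and 2873 in KO CAFs, a log2 KO/WT ratio of 0.25 (0.16 to 0.34). Bgn, the closest relative of Dcn and a ligand of Toll-like receptors, went the other way, from 3583 to 2778 CPM, with a ratio of -0.37 (-0.45 to -0.29). Aspn, which binds collagen and TGFβ without carrying a glycosaminoglycan chain, showed the largest difference among the members with at least 50 UMIs, 214 UMIs in WT and 74 in KO, or 294 and 83.6 CPM, a ratio of -1.81 (-2.22 to -1.43). The share of CAFs with an Aspn UMI at 2000 UMIs per cell was 36.5% (29.0 to 44.5%) of 159 WT cells and 12.8% (8.40 to 18.5%) of 187 KO cells, against 0.121% and 0% of melanoma cells. The unthinned shares were 52.1% and 21.3% of CAFs. For Dcn these thinned shares were 91.2% and 91.4%.

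Class II. Lum, a keratan sulfate proteoglycan that spaces collagen fibrils, was at 664 CPM in WT and 379 in KO, a ratio of -0.81 (-1.01 to -0.60). A Lum UMI was found in 58.5% (50.4 to 66.2%) of WT and 40.6% (33.5 to 48.1%) of KO CAFs at the common depth. Prelp, a heparin-binding member that links basement membranes to connective tissue, was the member with the highest ratio, from 39 to 96 UMIs or 53.5 to 108 CPM, at 1.02 (0.47 to 1.59). Its thinned share of 8.81% (4.90 to 14.3%) in WT overlapped in interval with 14.4% (9.74 to 20.3%) in KO. Fmod, which takes part in collagen cross-linking, had 11 UMIs in 10 WT CAFs and 1 UMI in KO, a ratio of -3.74 whose interval ran from -9.17 to -0.96.

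Class III. Ogn, which acts in collagen fibril formation, was at 124 CPM in WT and 147 in KO with a ratio of 0.25 (-0.15 to 0.65), an interval that included 0. The ratio turned to -0.17 when CAFs were thinned to 2000 UMIs. Its thinned shares were 19.5% (13.6 to 26.5%) and 17.1% (12.01 to 23.3%). In WT, the 19 CAFs with most Ogn UMIs held 64.4% of them. The share in each gene's own top 19 CAFs was 100% for Fmod, 74.4% for Prelp and 44.9% for Aspn. It was 32.9% for Lum, 28.5% for Dcn and 24.7% for Bgn. In KO the top 22 CAFs held 58.5% for Ogn, 100% for Fmod, 67.6% for Aspn and 63.5% for Prelp. They held 45.5% for Lum, 28.4% for Dcn and 29.5% for Bgn. In both libraries members with fewer UMIs had higher shares. The shares therefore cannot show whether Ogn was confined to fewer cells than other members.

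**Figure D2:**
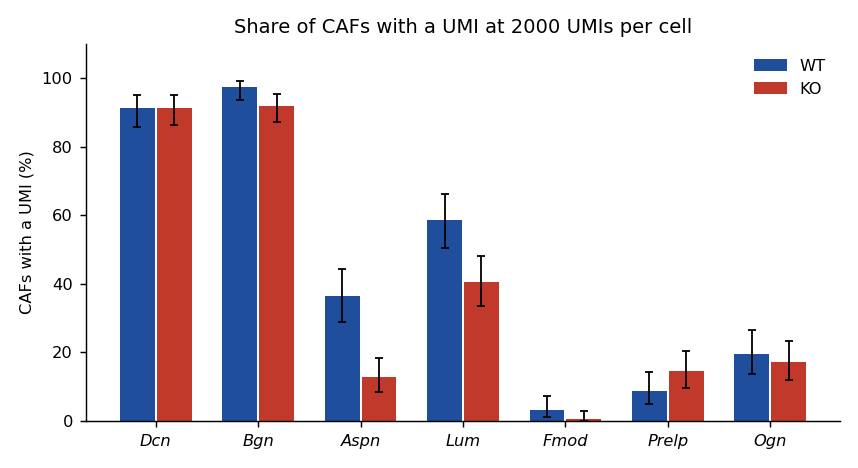
Share of CAFs with at least 1 UMI of each SLRP gene after each cell was thinned to 2000 UMIs (159 WT cells in blue, 187 KO cells in red). Bars give percent of cells with exact 95% binomial intervals, and the intervals of the 2 libraries are apart for Aspn and Lum.

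Summed over the 7 genes, SLRPs took 7148 CPM of WT and 6370 CPM of KO CAF transcripts, a log2 ratio of -0.17 (-0.22 to -0.11). The family total therefore differed less between libraries than Aspn, Lum, Prelp or Bgn did. Several of the differences depended on which CAFs were compared. The sex of the hosts differs between the CAF sets, since 151 WT and 55 KO CAFs had a UMI of Xist but none of a Y-linked gene, and the 49 CAFs with a Y-linked and no Xist UMI were KO cells. Among these Xist CAFs of both libraries, the ratio was 0.48 (0.35 to 0.61) for Dcn, -0.24 (-0.38 to -0.11) for Bgn, -2.66 (-3.81 to -1.70) for Aspn, -0.32 (-0.65 to -0.01) for Lum, 0.63 (-0.30 to 1.505) for Prelp and -0.44 (-1.24 to 0.30) for Ogn. Aspn thus kept its direction, with 181 UMIs in WT and 9 in KO, while the intervals for Prelp and Ogn included 0 and Lum was close to it. At 1.5-fold 1 of the 6 genes was lower (Aspn) and 1 higher (Prelp) in this comparison, where 16.2% of 2384 genes were lower and 8.64% higher. The family total was 0.0069 (-0.08 to 0.09). Against the same WT Xist CAFs, KO CAFs with Y-linked UMIs had a ratio of -0.13 (-0.27 to 0.0041) for Dcn, -0.55 (-0.68 to -0.42) for Bgn, -1.32 (-1.92 to -0.76) for Aspn, -0.58 (-0.88 to -0.28) for Lum, 1.56 (0.88 to 2.24) for Prelp and 0.73 (0.22 to 1.23) for Ogn. Aspn, Bgn and Lum were lower in KO and Prelp was higher by the point estimate in both sets.

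**Figure D3:**
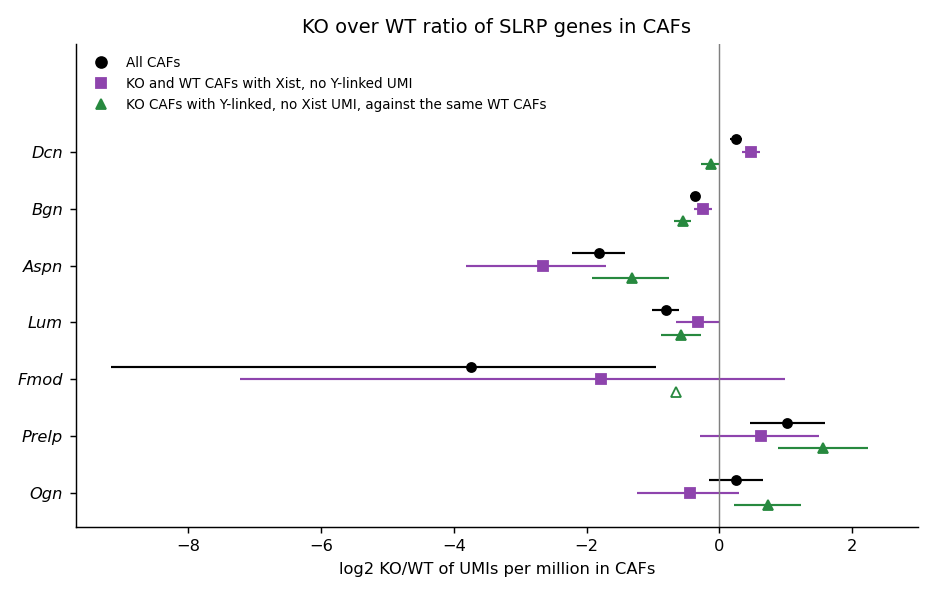
Log2 KO/WT ratio of each SLRP gene in CAFs, for all CAFs (black), CAFs with Xist in both libraries (purple) and KO CAFs with Y-linked UMIs against WT CAFs with Xist (green). Lines are exact 95% conditional intervals, the open triangle is Fmod at 0 KO UMIs set to 3 with no interval drawn, and Aspn, Bgn and Lum lie left of 0 in the 3 sets while Dcn and Ogn change side.

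The KO library allowed some CAFs of each sex to be compared within 1 library. Of its 216 CAFs, 55 entered by Xist and 49 by Y-linked UMIs, and the others were left out. Dcn was at 3521 CPM in KO CAFs with Xist and 2301 CPM in those with Y-linked UMIs, a log2 difference of -0.61 (-0.77 to -0.45), and Bgn at 3075 and 2484 CPM, -0.31 (-0.47 to -0.14). Aspn was at 46.7 CPM (9 UMIs) and 118 CPM (31 UMIs), 1.34 (0.23 to 2.60). Ogn was at 98.5 and 221 CPM, 1.17 (0.40 to 1.996), and Prelp at 88.1 and 168 CPM, 0.93 (0.09 to 1.83). For Lum the interval of the difference was -0.64 to 0.14. Cells of the adventitial-like subtype described next made up 45.5% of the 55 KO CAFs with Xist and 10.2% of the 49 with Y-linked UMIs, and cCAF-like cells 14.5% and 40.8%. Entry needed a UMI of Xist or of a Y-linked gene, which deeper cells hold more readily. The median depth was 2715.5 UMIs in adventitial-like and 5418 in cCAF-like CAFs of both libraries. Sex, tumour, subtype and depth cannot be told apart in this contrast, because each library pooled 2 tumours and depth bears on which CAFs entered. The Xist CAFs of the 2 libraries also differed in subtype. Of the 151 in WT, 27.2% were adventitial-like, 31.8% cCAF-like, 27.2% vCAF-like and 13.9% hypoxic-like. Of the 55 in KO, the shares were 45.5%, 14.5%, 16.4% and 23.6%. The part of this in the KO/WT ratios among Xist CAFs was not tested.

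CAFs were clustered alone, with the SLRPs and all listed genes left out, and fell into 4 subtypes named from marker lists. Cells with cycling genes (cCAF-like, led by Ube2c and Stmn1) numbered 58 in WT and 55 in KO, those with hypoxia genes (hypoxic-like, led by Ero1l and Ndrg1) 31 and 75, those with adventitial genes (led by Cxcl13 and Ptx3) 46 and 52, and those with vascular CAF genes (vCAF-like) 53 and 34. The vCAF-like cluster was led by Hbb-bs, a haemoglobin gene with 219 UMIs in its WT cells and 0 in its KO cells. Summed mural cell markers were also at their highest there, at 280 CPM in WT and 714 in KO. Of these, Notch3, Des and Kcnj8 are also in the vCAF list that named the cluster, so this is partly fixed by the naming. The part of the haemoglobin and mural transcripts in the SLRP values was not tested.

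The members split into 2 patterns over the subtypes. Dcn, Lum, Prelp and Ogn were highest in adventitial-like cells in both libraries, and Bgn and Aspn were highest in vCAF-like cells in both, by point estimate. The interval of the highest subtype overlapped that of the next one for Lum (vCAF-like) and Prelp (cCAF-like) in both libraries, for Bgn (hypoxic-like) in WT and for Aspn (cCAF-like) in KO, and stood apart for Dcn and Ogn in both. The span from the highest to the lowest subtype was 3.26-fold in WT and 2.96-fold in KO for Dcn, 2.07-fold and 1.47-fold for Lum, and 1.56-fold and 2.19-fold for Bgn. It was 3.53-fold and 10.9-fold for Aspn. The lowest values rested on few UMIs for Ogn (12.2-fold on 3 UMIs in WT and 23.0-fold on 2 UMIs in KO) and for Prelp (11.2-fold on 1 UMI and 5.51-fold on 5 UMIs). In WT, Dcn was at 5105 CPM in adventitial-like, 2538 in hypoxic-like, 1933 in vCAF-like and 1567 in cCAF-like cells, with no overlap of neighbouring intervals. In KO it was at 5093, 3539, 1723 and 1824 CPM, and the last 2 overlapped. Bgn was at 4388 CPM in vCAF-like, 3708 in hypoxic-like, 3392 in cCAF-like and 2817 in adventitial-like WT cells, and the hypoxic-like interval overlapped those of the vCAF-like and cCAF-like cells. Aspn was at 463, 280, 200 and 131 CPM in vCAF-like, cCAF-like, adventitial-like and hypoxic-like WT cells, where the last 3 overlapped in neighbouring pairs. Of the 11 WT Fmod UMIs, 7 came from vCAF-like cells.

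Aspn and Lum were lower in KO in each of the 4 subtypes, with intervals below 0. Aspn ran from 463 to 197 CPM in vCAF-like cells (-1.23, -1.92 to -0.58), 280 to 98.7 in cCAF-like cells (-1.51, -2.13 to -0.92), 200 to 69.8 in adventitial-like cells (-1.52, -2.73 to -0.42) and 131 to 18.1 in hypoxic-like cells (-2.86, -4.71 to -1.25). Lum ran from 921 to 488 CPM in adventitial-like cells (-0.92), 851 to 455 in vCAF-like cells (-0.90), 689 to 333 in hypoxic-like cells (-1.05) and 445 to 341 in cCAF-like cells (-0.39, -0.75 to -0.02). Bgn was lower in 3 subtypes, by the largest margin in cCAF-like cells (3392 to 2297 CPM, -0.56, -0.70 to -0.43), and was nearly level in vCAF-like cells at 4388 and 4448 CPM (0.02, -0.14 to 0.17).

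The higher Dcn level of KO CAFs was found in 2 of the 4 subtypes. In hypoxic-like cells Dcn was at 2538 CPM in WT and 3539 in KO (0.48, 0.27 to 0.69) and in cCAF-like cells at 1567 and 1824 (0.22, 0.05 to 0.39). In adventitial-like cells, where Dcn was highest, the values were 5105 and 5093 CPM with an interval of -0.16 to 0.15, and in vCAF-like cells 1933 and 1723 CPM with an interval of -0.41 to 0.08. Without the hypoxic-like cells the Dcn ratio was 0.10, and with subtypes weighted equally it was 0.13. Ogn was higher in KO in cCAF-like cells (26 and 47 UMIs, 0.80, 0.07 to 1.55) and hypoxic-like cells (3 and 31 UMIs, 1.78, 0.09 to 4.13), and had intervals that included 0 in the other two. Prelp was above WT by the point estimate in all 4 subtypes, with an interval off 0 in cCAF-like cells, where 17 and 45 UMIs gave 1.35 (0.51 to 2.24).

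**Figure D4:**
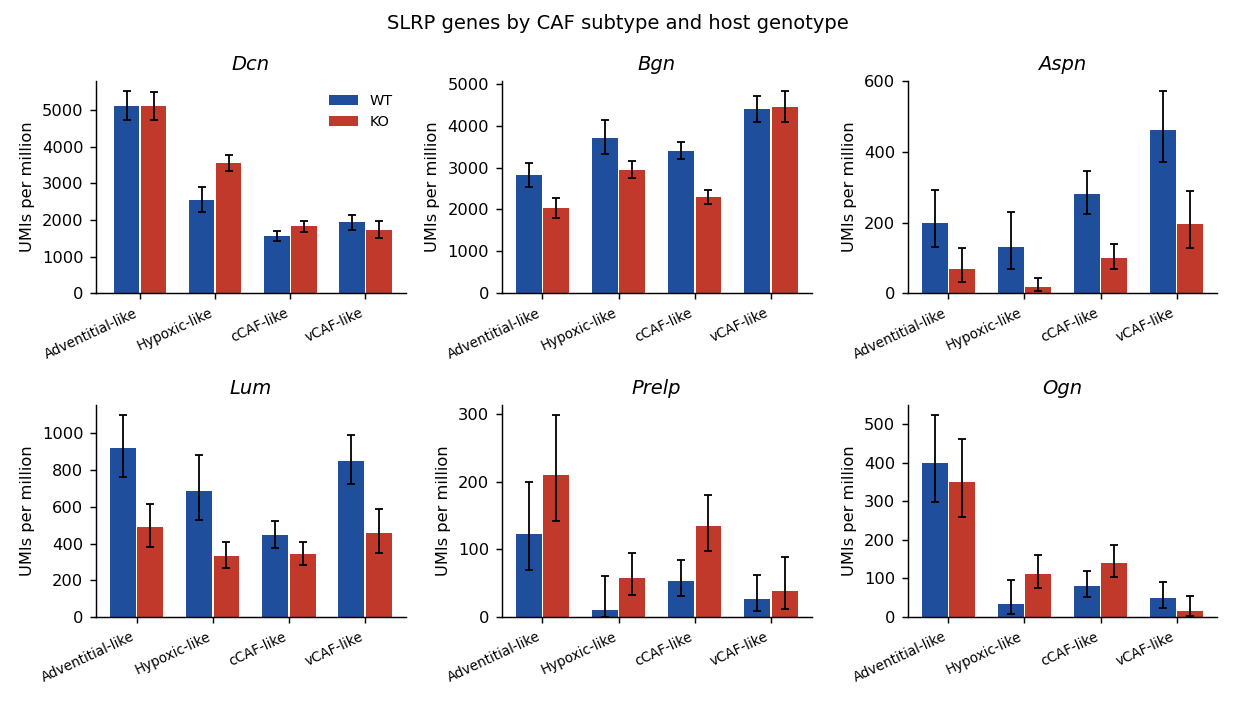
SLRP levels in the 4 CAF subtypes in CPM, with 1 bar per library (WT blue, KO red) and exact 95% Poisson intervals. Each panel has its own axis from 0, Fmod is left out at 12 UMIs, and Aspn and Lum are lower in KO in each subtype while Dcn and Ogn are not.

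Over all CAFs the neighbours of each pair had KO/WT ratios of opposite sign, with the interval of Ogn including 0. The signs depended on the CAFs compared. Among Xist CAFs Aspn and Ogn were both below 0 by point estimate (-2.66 and -0.44). Dcn and Lum were both below 0 for KO CAFs with Y-linked UMIs against WT Xist CAFs (-0.13 and -0.58). The values that follow are for all CAFs. The ratio of Dcn to Lum UMIs in CAFs was 3.63 in WT and 7.57 in KO, 2.08 times as high. The ratio of Aspn to Ogn UMIs was 2.38 in WT and 0.569 in KO, and that of Prelp to Fmod was 3.55 in WT and, on 1 Fmod UMI, 96 in KO. Omd, between Aspn and Ogn, and Kera and Epyc, which follow Lum, had 0 UMIs in the 404 CAFs. Among the 2000-UMI cells, a Lum UMI was found in 61.4% of 145 WT CAFs with a Dcn UMI and in 42.7% of 171 KO CAFs with one. Without a Dcn UMI the shares were 28.6% of 14 and 18.8% of 16. An Ogn UMI was found in 25.9% of 58 WT CAFs with an Aspn UMI and 15.8% of 101 without. In KO these were 12.5% of 24 and 17.8% of 163. The intervals with and without the first gene overlapped for both pairs in both libraries. Aspn and Ogn are overlapped on the opposite strand by Cenpp, which had 6 UMIs in WT CAFs and 5 in KO CAFs, and Prelp by Gm15851, with 0 in both.

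**Figure D5:**
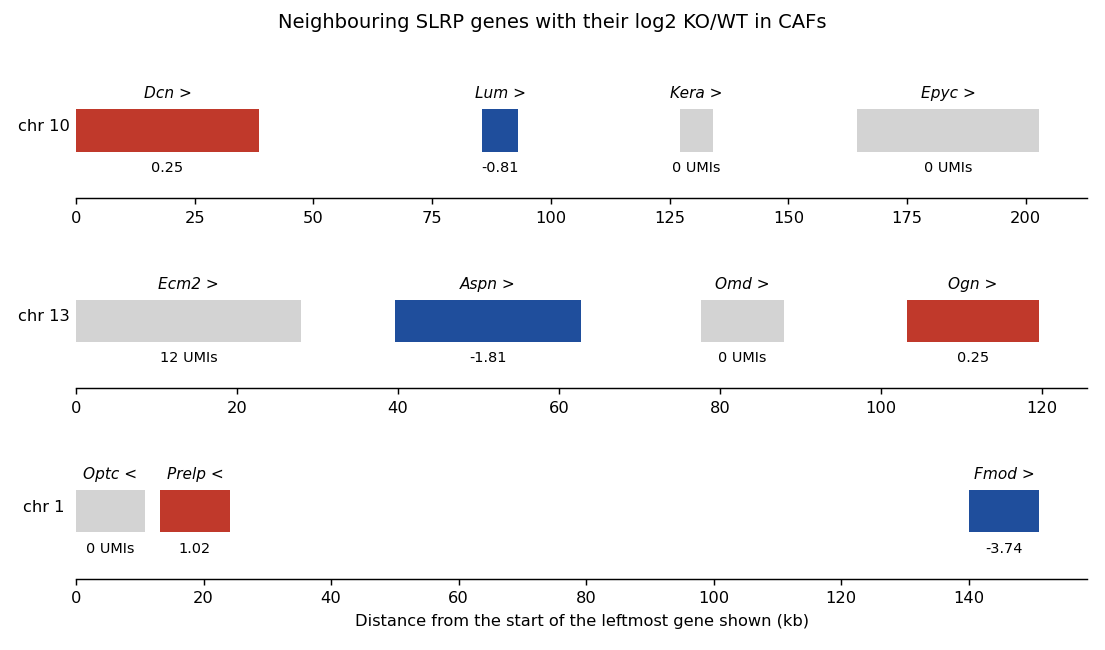
Maps of the 3 neighbourhoods of SLRP genes, drawn to scale in kb from the start of the leftmost gene shown, with arrows for strand. Members are red where the log2 KO/WT ratio in all CAFs (number below) is above 0 and blue where it is below 0, grey genes are other family members with their CAF UMIs of both libraries, and each neighbourhood holds 1 member of either sign, with the interval of Ogn including 0.

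The other members of the family were scarce. Of 10 further SLRP genes, Omd, Kera, Epyc, Optc, Chad and Nyx had 0 UMIs in CAFs, and the rest had too few for the ratio count. Podn was at 20 and 11 UMIs, Tsku at 10 and 20, Ecm2 at 7 and 5, and Podnl1 at 1 in each library.

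Genes that build, bind or cleave SLRPs are given as background to the members, and their counts are read against the 12.3% of all genes tested that were at least 1.5-fold lower and the 9.39% that were higher. Of 28 enzymes that build or sulfate their glycosaminoglycan chains, 10 had at least 50 UMIs. Of these 2 were at least 1.5-fold lower in KO, Chsy1, a chondroitin synthase (-0.62, -1.31 to 0.06), and Chst2, an N-acetylglucosamine sulfotransferase (-0.89, -1.76 to -0.05). The 1 that was higher was Chst11, a chondroitin sulfotransferase (1.18, 0.42 to 1.99). These enzymes are named because the counts are small, after their values were seen. The list's median was -0.24, against -0.04 for all genes tested, and Chst3, Chst5, Chst7, Chst13 and B3gnt7 had 0 UMIs. In the Xist CAFs 1 enzyme could be tested.

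Of 11 fibrillar collagens, to which SLRPs bind, 7 were tested, 2 were at least 1.5-fold lower in KO and 0 higher, with a median of -0.53. Among Xist CAFs 4 of 7 were lower and 0 higher, with a median of -0.63, where 16.2% and 8.64% of all genes were. The abundant ones were lower by less than that fold, Col1a1 with 12116 and 8364 CPM (-0.53), Col1a2 with 12561 and 8590 (-0.55) and Col3a1 with 17389 and 13471 (-0.37), and Col5a1, a regulator of fibril diameter, was at -0.67. Col5a2 was at -0.41, Col5a3 at 0.25 and Col2a1 at 0 UMIs. The other called collagen, Col27a1, was at -1.18, and is named here after its value was seen. Col1a1, Col1a2, Col3a1, Col5a1 and Col5a2, and the protease Mmp2, are among the 12 markers of the CAF gate, so their levels also bear on which cells were counted.

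Of 14 receptors and bound ligands, 6 were tested. The ligand Tgfb1, which decorin, biglycan and asporin bind, was the 1 called lower (165 and 103 CPM, -0.68, -1.09 to -0.28), and Igf1r, a receptor of decorin, the 1 called higher (0.79), named after its value was seen. The endocytic decorin receptor Lrp1 was at 0.11, Egfr at 0.40 and Itgb1, a collagen-binding integrin chain, at -0.07, with intervals that included 0, and Erbb4 had 0 UMIs. Among Xist CAFs 4 were tested, 1 was lower and 1 higher, where 16.2% and 8.64% of all genes were. Of 10 proteases that cleave SLRPs, 8 were tested, with 1 called lower (Adamts4, -0.96, named after its value was seen), 0 called higher and a median of 0.25. Adamts5, an aggrecanase, was at 0.58, just under the fold, Mmp2 at 0.33, Bmp1, which trims SLRP precursors, at 0.25, Mmp3 at -0.48, Mmp14 at -0.57 and Gzmb at 0 UMIs. Among Xist CAFs 1 of 6 proteases was lower and 2 were higher, beside the same 16.2% and 8.64% of all genes. Of 18 other proteoglycans, 8 were tested, with 1 lower and 2 higher and a median of 0.05. Sdc4, a cell surface heparan sulfate proteoglycan, was at 147 CPM in WT and 309 in KO (1.07, 0.75 to 1.41), while Hspg2 (perlecan) was at 0.27, Sdc1 at 0.22, Sdc2 at -0.12 and Vcan (versican) at -0.14. Acan, Ncan and Spock1 had 0 UMIs. Among Xist CAFs 0 of 7 were lower and 2 higher, again beside 16.2% and 8.64% of all genes. The other called genes, named after their values were seen, were Prg4 (lubricin, 1.65) and Gpc1 (a glypican, -1.28).

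The genes most like each member over the 8 combinations of subtype and library were sought among 1227 genes with at least 200 CAF UMIs, by Pearson's r of log2(CPM + 10). They were Rnase4, Ifi204 and C3 for Dcn (r = 0.98, 0.95 and 0.95), Col15a1, Gng11 and Cd81 for Bgn (0.96, 0.93 and 0.91), Kdelr1, Cilp and Oat for Aspn (0.94, 0.93 and 0.93), Jun, B2m and Gadd45b for Lum (0.96, 0.95 and 0.94), and Zfp36l1, Tnxb and Igfbp6 for Ogn (0.98, 0.98 and 0.97). Between members the highest value was that of Dcn and Ogn (0.76) and the lowest that of Bgn and Ogn (-0.85). Lum shared its highest subtype with Dcn and Ogn, but was at 0.25 and 0.06 with them. Its values were 0.64 with Aspn and 0.36 with Bgn. These are descriptions over 8 sums that share 2 libraries.

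The gate left some CAF-like cells out. Cells that passed no gate held 3 Dcn UMIs in WT and 148 in KO, and 116 of the latter were in 17 KO cells that clustered with the CAFs, with a median of 3 fibroblast markers. The corresponding Bgn counts were 10 and 128, with 110 in those 17 cells. With CAFs taken from the clusters (205 WT and 248 KO cells) the Dcn ratio was 0.40 and the Bgn ratio -0.27. Erythroid markers summed to 326 UMIs in WT CAFs and 0 in KO CAFs with 1 and 4 of the 4 markers at 0, and melanoma markers to 585 and 530 CPM with 0 of 7 at 0. Their part in the SLRP differences was not tested. The Aspn, Lum, Bgn, Fmod and Prelp ratios kept their direction in all alternatives computed.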

How the data were processed

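Single-cell libraries, 1 per host genotype, were analysed. The authors made the deposited raw UMI counts with Cell Ranger 3.1.0 on GRCm38, per the submitters' processing notes, and the deposited barcodes hold at least 500 UMIs. Labels and methods name different kit versions. The study clustered in Seurat 3.2.1, and its cell labels are not used here.

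Cells were required to have 200 to 5000 genes and no more than 7.5% mitochondrial UMIs. A cell entered a class by markers detected and marker UMIs per 10000, which were 5 of 12 and 20 for CAFs, 1 of 7 and 40 for melanoma, 4 of 10 and 20 for macrophages and monocytes, 4 of 8 and 20 for endothelial cells, and 2 of 8 and 20 for T/NK cells. Cells passing several gates were set aside as mixed (123 WT, 61 KO) and those passing none as ungated (434 WT, 438 KO). The gate limits were set after marker UMIs, but not SLRP values, were seen. CAF subtypes came from Seurat 5.3.0 under R 4.3.3 (anchors, 10 components, resolution 0.4), with 111 genes, the members, all listed genes and mitochondrial genes, left out. Doublets were not removed. Scrublet (scanpy 1.11.5) marked 114 WT and 50 KO cells, among them 2 WT and 0 KO CAFs. UMIs were summed per class and library in Python 3.11.15 with numpy 2.4.6, pandas 2.3.3 and scipy 1.17.1. Sums have exact Poisson, shares Clopper-Pearson and ratios conditional binomial intervals at 95%, and a lone 0 was set to 3 UMIs per library for ratios. Ratios were tested on simulated counts.

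The members and lists were chosen with earlier results of these data known. The named genes were the members, the 3 highest and 3 lowest ratios of each list at 200 UMIs or more, list genes at 0, and the 3 most alike genes per member. List genes named outside this rule are marked as named after their values were seen. Gene positions are from GENCODE on GRCm38.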

Additional observations from a re-analysis of the deposited data

Results flagged for a closer look

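Point estimates of opposite sign with intervals that did not overlap were met for Dcn and Bgn between CAF subtypes, and for Dcn and the family total between the sets of KO CAFs. The log2 KO/WT ratio of Dcn was 0.48 in hypoxic-like and -0.17 in vCAF-like cells, and that of Bgn was -0.56 in cCAF-like and 0.0197 in vCAF-like cells. For Dcn it was 0.48 in CAFs with Xist and -0.13 for KO CAFs with Y-linked UMIs, and for all 7 genes together 0.0069 and -0.35. With 1 library per genotype these differences were not tested.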

How the results depend on the processing

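Of 144 alternative values, 6 changed sign, of which 3 were those of Ogn. Where a value changed, the cause was not tested. CAFs taken from Seurat clusters gave log2 ratios of 0.40 for Dcn, -0.27 for Bgn and -0.059 for the 7 genes together, and log2 differences of CAFs over other classes of 8.21 in WT and 8.60 in KO. Without an upper limit on genes the KO class difference was 9.05. CAFs with Xist gave 0.48 for Dcn, -0.32 for Lum, -0.24 for Bgn, -0.44 for Ogn, -2.66 for Aspn and, reversed, 0.0069 for the total. Thinning gave -0.17 for Ogn. Giving each CAF the subtype with the highest score, and weighting subtypes equally, reversed Dcn to -0.017, turned Ogn from 0.14 to -0.097 and moved the total to -0.24. Over all genes tested, 527 were lower and 402 higher, which became 113 and 100 at 200 UMIs, and 155 and 147 at 2-fold. Among CAFs with Xist, 387 were lower and 206 higher of 2384 genes tested, in place of 4279, or 16.2% and 8.64% in place of 12.3% and 9.39%. Chosen after seeing the data were the omission of the hypoxic-like subtype (Dcn 0.10, total -0.23), the omission of the vCAF-like subtype, and KO CAFs with Y-linked UMIs against WT CAFs with Xist (Dcn reversed to -0.13, Lum -0.58, Bgn -0.55, Fmod -0.65 with its 0 set to 3, Ogn 0.73, Aspn -1.32, total -0.35). The 15% mitochondrial limit, doublet removal, CPM without mitochondrial and ribosomal protein genes, TMM factors (edgeR 4.0.16), free RNA subtraction in CAFs, the mean of per-cell CPM, 2 more fibroblast markers and subcluster resolution 0.8 moved 0 values beyond the main value's counting interval. Free RNA subtraction was not run for the other classes, since melanoma markers cannot scale it in melanoma cells. No paired analysis was possible because there was a single library of either genotype. Counting error, and not the difference between mice, is all that the intervals hold, and depth limits Fmod (12 UMIs) most.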
